A study of Mus musculus with 23 samples.

Results

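The genes described here encode enzymes of fatty acid oxidation and of the citrate cycle, measured in 23 single mouse cells on Affymetrix mouse expression arrays. The members were 36 gene symbols of a pathway list, and every probe set annotated to one of these symbols alone was taken. That gave 82 of the 45101 probe sets of the table, and 36 of the 18193 genes tested. Of the members, 10 had 1 probe set and 26 had more, up to 5, and the probe set with the highest mean over all cells stood for its gene.

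Long-chain fatty acids enter mitochondria on carnitine, are shortened by rounds of dehydrogenation, hydration, a further dehydrogenation and thiolysis, and leave as acetyl-CoA. Acetyl-CoA, which the pyruvate dehydrogenase complex also makes from glucose, joins oxaloacetate to form citrate and is oxidized in the citrate cycle. Heart muscle is known for its dense mitochondria and for its heavy use of fatty acids and ketone bodies as fuel.

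The study asked whether the RNA of a cardiomyocyte can change the type of another cell. Untransfected cardiomyocytes (4 cells) were the donor type and untransfected fibroblasts (3) the recipient type. FibroTIPeR cells (5) were fibroblasts given cardiomyocyte poly-A RNA with a lipid reagent, a transfer named transcriptome-induced phenotype remodeling, and fibroControl cells (3) were fibroblasts given fibroblast RNA in the same way. AstroTIPeR cells (6) were astrocytes given cardiomyocyte RNA, and astroControl cells (2) were astrocytes that went through a mock transfection, so the controls of the 2 recipient types differed in kind. All cells had been cultured in a serum-containing medium, drawn singly into a glass pipette, and their RNA amplified. The labels name no strain, age, animal or culture, so n counts cells, and a p-value here speaks of cell-to-cell spread alone, part of which may come from the amplification or the array.

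Levels are log2 values after quantile normalization of the 23 arrays. On that scale the median of the genes' mean levels was 5.71, with 10th and 90th percentiles of 4.06 and 10.47. No detection call was used, so differences between levels below that median are not exact in size. Echs1, Eci1, Decr1, Etfdh and Suclg2 lay below it in all 6 groups, and 12 members, Acadm, Oxct1, Pdha1, Dld, Cs, Idh2, Idh3a, Idh3b, Ogdh, Mdh2, Mdh1 and Got2, lay above it in all 6. Levels of different probe sets were not set against each other. The 8 astrocyte arrays had deposited medians of 4.28 to 4.56 and the other 15 of 5.05 to 5.58, and the array sets were compared by no test other than that of the transfer effect.

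Markers of the labelled cell types were read in the same arrays. A list of 10 cardiomyocyte markers averaged 9.40 ± 0.61 (SD, n = 4) in cardiomyocytes and between 5.01 and 5.68 in the other groups, fibroTIPeR cells included (5.62 ± 0.52, n = 5). Of that list Tnnt2 alone had the higher mean in fibroblasts (8.46 ± 2.53, up to 11.28) than in cardiomyocytes (7.99 ± 0.42), and it averaged 7.05 in fibroTIPeR cells. A list of 10 fibroblast markers averaged 8.72 ± 1.04 (n = 3) in fibroblasts, 9.33 ± 1.25 in fibroControl, 8.45 ± 0.29 in fibroTIPeR and 6.32 ± 1.01 in cardiomyocytes. Of the 10, 8 had the higher mean in fibroblasts than in cardiomyocytes, from Vim (14.86 ± 0.46 against 5.81 ± 3.77, with 1 cardiomyocyte at 11.38) to Fn1 (5.61 against 5.58), while Dcn (8.85 against 10.17) and Thy1 (6.28 against 8.02) had the lower. The astrocyte labels were not borne out by Gfap, which averaged 5.32 ± 0.58 (n = 2) in astroControl and 4.70 ± 0.96 (n = 6) in astroTIPeR. It averaged 6.13 ± 1.26 (n = 4) in cardiomyocytes and 6.01, 5.18 and 4.87 in fibroblast, fibroControl and fibroTIPeR cells. The list of 10 astrocyte markers averaged 6.59 in astroControl, 7.13 in astroTIPeR and 7.43 in cardiomyocytes. In fibroblast, fibroControl and fibroTIPeR cells that list averaged 6.85, 6.55 and 6.37. The astrocyte groups are therefore called by their labels alone. Control probe sets for 18S ribosomal RNA averaged 11.6 in fibroControl (11.23 to 12.08), 7.45 in fibroblasts (7.05 to 8.06) and 7.48 in cardiomyocytes (6.94 to 8.24), while fibroTIPeR cells 1 to 3 read 11.03 to 13.48 and cells 4 and 5 read 7.80 and 7.88.

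Members with promoter sequence in RefSeq (build GRCm38.p6) numbered 32, with 37 windows around an annotated start. Acaa2, Acat1, Decr1 and Idh3a had no entry. Motifs of 3 kinds were searched on both strands. The letters TNAAGGTCA, an element of the estrogen-related receptors, which regulate mitochondrial genes, occurred in 0 of 37 member windows and in 1.28% of all 32851 windows. The half-site AGGTCA repeated after 1 free base, which PPAR receptors bind, occurred in 0 of 37 and in 0.0396% of all windows. The letters GCGCA and GCGC parted by 1 free base, the element of NRF1, a factor of nuclear genes for mitochondrial proteins, occurred in 4 of 37 member windows (10.8%) and in 4.60% of all windows. The 4 were Etfb, Etfdh, Sucla2 and Dld, the last with its match after the start. A match is a run of letters and not a measured binding site, and its absence says only that the letters are not in the window. The 3 promoters with a match before the start are shown up to the start with the match in capitals, because Etfb and Sucla2 recur in the comparisons and Etfdh acts with Etfb. Their positions are chr7:43443822-43444071 on the plus strand for Etfb (match 11 bases before the start), chr3:79628768-79629017 on the minus strand for Etfdh (128 bases before) and chr14:73552536-73552785 on the plus strand for Sucla2 (17 bases before, the motif read on the other strand). Hadha and Hadhb, the subunits of the mitochondrial trifunctional protein, are transcribed away from each other, and the 272 bases between their starts (chr5:30154981-30155252, plus strand as for Hadhb, 60.3% G and C) are shown because the pair shares them.
Etfb: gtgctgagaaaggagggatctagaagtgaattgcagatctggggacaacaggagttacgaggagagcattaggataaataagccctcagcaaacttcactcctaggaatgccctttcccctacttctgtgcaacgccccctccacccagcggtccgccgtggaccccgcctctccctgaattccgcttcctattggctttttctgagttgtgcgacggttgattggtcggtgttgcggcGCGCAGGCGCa
Etfdh: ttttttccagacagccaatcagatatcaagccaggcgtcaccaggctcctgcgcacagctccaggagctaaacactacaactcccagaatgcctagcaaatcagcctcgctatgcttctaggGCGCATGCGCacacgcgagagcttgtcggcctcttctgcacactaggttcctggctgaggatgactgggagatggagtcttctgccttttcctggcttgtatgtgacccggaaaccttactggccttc
Sucla2: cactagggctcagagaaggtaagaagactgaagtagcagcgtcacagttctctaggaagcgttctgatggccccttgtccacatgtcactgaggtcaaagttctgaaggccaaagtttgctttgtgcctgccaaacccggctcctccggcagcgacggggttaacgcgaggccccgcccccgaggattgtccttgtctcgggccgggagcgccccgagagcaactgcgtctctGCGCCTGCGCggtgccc
Hadha-Hadhb: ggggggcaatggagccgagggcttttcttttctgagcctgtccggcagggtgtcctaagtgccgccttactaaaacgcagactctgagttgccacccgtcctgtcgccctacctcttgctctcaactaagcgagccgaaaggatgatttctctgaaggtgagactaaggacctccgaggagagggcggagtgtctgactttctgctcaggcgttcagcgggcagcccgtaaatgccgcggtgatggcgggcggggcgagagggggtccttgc

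The first comparison was of donor and recipient types, cardiomyocytes against fibroblasts, both untransfected. In cardiomyocytes 27 of the 36 members had the higher mean, against 54.3% of all genes, and the median difference of the members was 0.68 log2 units against 0.087 over all genes tested. Acadl, Hadhb, Etfa, Oxct1, Dld and Idh3b had an unadjusted p under 0.05 by limma, all 6 higher in cardiomyocytes, where 9.72% of all genes had such a p and 5.07% in that direction. With every probe set fitted, 11 of the 82 member probe sets had such a p, where 9.3% of all probe sets had. Among those that did not stand for their genes, Cpt1a was lower (-2.18 and -2.25), and Idh2 (2.70), Mdh1 (1.80) and Suclg2 (1.96) were higher. None of the 36 members passed an adjusted p of 0.05 (limma, Benjamini-Hochberg over 18193 genes), a threshold that 41 genes, 0.225%, passed. The median 95% interval of a member reached 1.65 log2 units to either side, so differences smaller than that could mostly not be told from 0.

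All 4 cardiomyocytes lay above all 3 fibroblasts in 7 members (Acadl, Hadha, Hadhb, Etfa, Oxct1, Dld and Fh1), a separation found in 8.41% of all genes, and below them in 0 members (4.24% of all genes). Counted per cell, 18, 23, 27 and 23 of the 36 members lay above their own median of the 15 arrays in the cardiomyocytes, and 10, 12 and 17 in the fibroblasts. With array weights in the fit 5 members passed, Acadl, Hadhb, Etfa and Idh3b among them, while 1130 of all genes did. Macrophage (7.39 against 7.17) and endothelial (5.72 against 5.37) marker lists had these mean levels in cardiomyocytes and fibroblasts. The brown fat list was 5.09 against 5.18 and the smooth muscle list 4.94 against 6.94, and the part of these lists in the result was not tested.

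**Figure D1:**
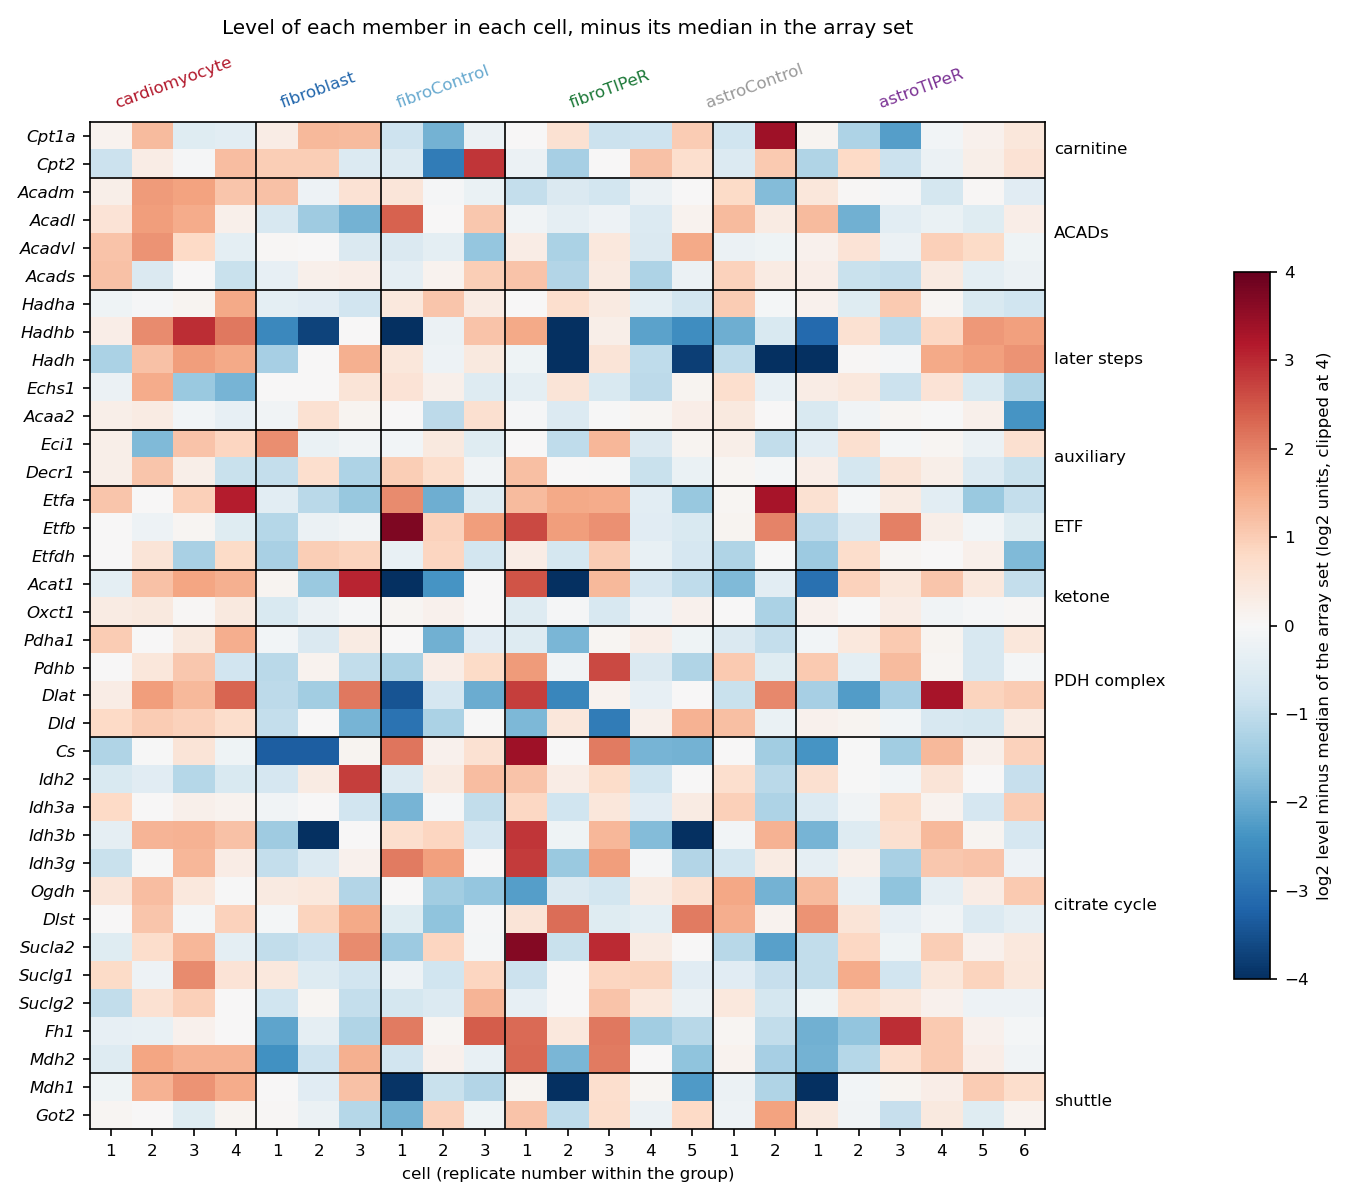
Level of each of the 36 members (rows, by role) in each of the 23 cells (columns, by group), in log2 units relative to the member's median in its own array set of 15 or 8 arrays, with the colour clipped at 4. Cardiomyocytes 2 to 4 are red in most rows (23, 27 and 23 of 36 members above the median), fibroblasts 1 and 2 blue (10 and 12), and fibroTIPeR cells range from 9 to 25.

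**Figure D2:**
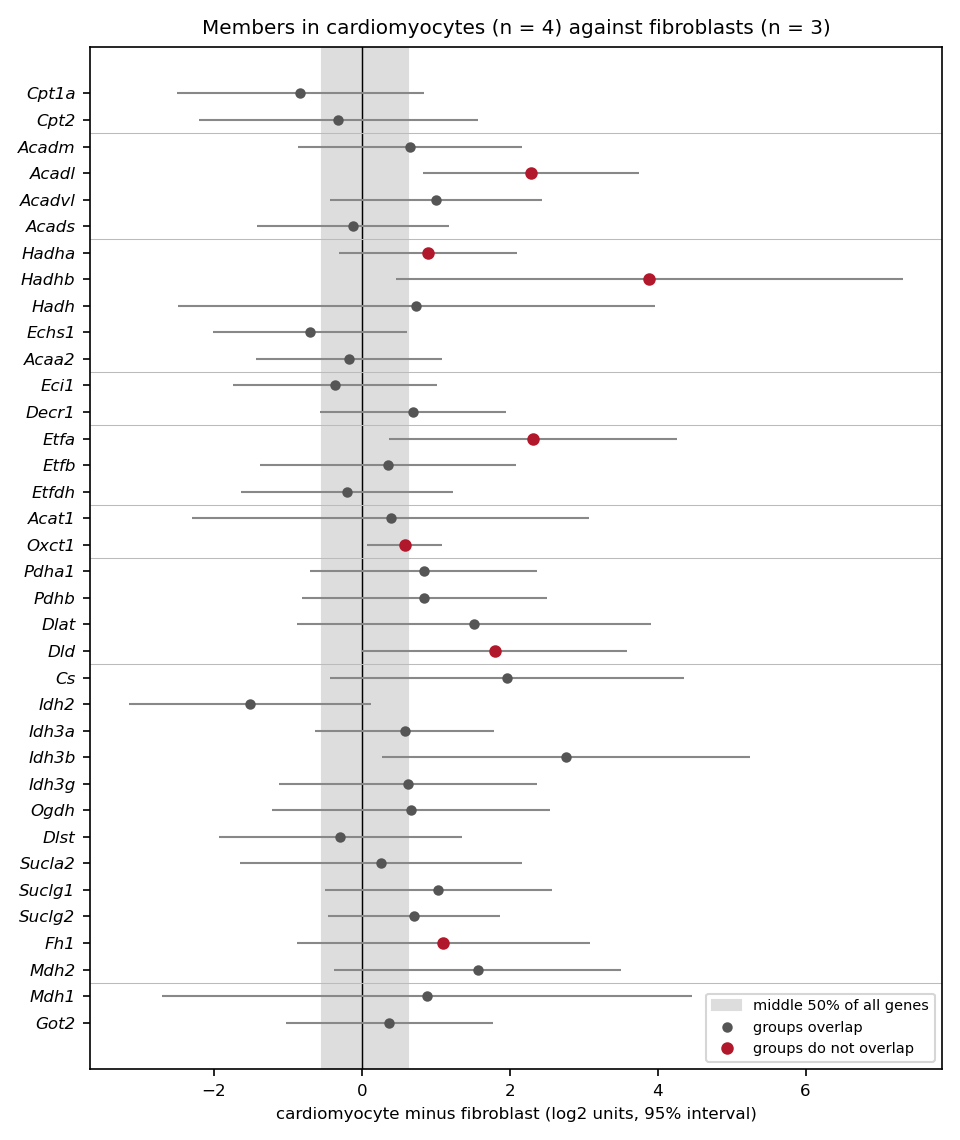
Difference between the mean levels of cardiomyocytes (n = 4) and fibroblasts (n = 3) for each member, in log2 units, with the 95% interval of the limma fit; red points mark the 7 members whose groups do not overlap, and the grey band holds the middle of all genes, from -0.544 to 0.628. Of the 36 points 27 lie above 0, and 6 intervals lie wholly above it, before adjustment for the number of genes.

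Of the carnitine shuttle, Cpt1a joins long-chain acyl groups to carnitine at the outer membrane and is the liver-type form of the enzyme, and Cpt2 takes the carnitine off inside. Cpt1a read 5.46, 6.58, 4.82 and 4.91 in the 4 cardiomyocytes and 5.63, 6.61 and 6.58 in the 3 fibroblasts. The groups overlapped, and the difference was -0.83 (SE 0.81, adjusted p = 0.771 by limma). The other 2 Cpt1a probe sets were also lower in cardiomyocytes, by values of -2.18 and -2.25 (adjusted p = 0.358 and 0.343 by limma with every probe set fitted). Cpt2 averaged 5.97 in cardiomyocytes and 6.28 in fibroblasts, with SDs of 0.87 and 0.88. Cpt1b, the muscle form, was not analysed here.

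The acyl-CoA dehydrogenases carry out the first oxidation of each round and divide the work by chain length. Acadl, which takes long chains, read 6.27, 7.40, 7.21 and 5.92 in cardiomyocytes and 5.10, 4.30 and 3.85 in fibroblasts. Every cardiomyocyte was higher, and the difference of 2.28 (SE 0.71, adjusted p = 0.252) had the smallest adjusted p of the members. Its other probe set differed by 0.95 in the same direction. Acadm, for medium chains, averaged 8.56 ± 0.68 (SD, n = 4) against 7.91 ± 0.69 (n = 3), and Acadvl, for very long chains, 7.08 ± 0.92 against 6.07 ± 0.35. Acads, for short chains, averaged 4.77 ± 0.90 against 4.89 ± 0.33. In each of these 3 the groups overlapped.

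The later steps of a round are carried out for long chains by the trifunctional protein, of which Hadha holds the hydratase and hydroxyacyl-CoA dehydrogenase and Hadhb the thiolase. Hadhb read 9.72, 11.35, 12.43 and 11.57 in cardiomyocytes and 6.88, 5.78 and 9.47 in fibroblasts. All cardiomyocytes were above all fibroblasts, the closest being 9.72 and 9.47, and the difference of 3.89 was the largest of the members (SE 1.67, adjusted p = 0.453). The probe sets used for Hadhb, Hadh, Mdh1 and Oxct1 are of a kind that, by the maker's naming, may bind related sequences. The other 2 Hadhb probe sets differed by -0.37 and 0.14. Hadha read 4.81, 4.92, 5.08 and 6.51 against 4.59, 4.52 and 4.21. Again the groups did not overlap, with a difference of 0.89 (SE 0.59, adjusted p = 0.640).

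For shorter chains Echs1 hydrates, Hadh dehydrogenates and Acaa2 cleaves. Hadh read 9.52, 11.98, 12.47 and 12.31 in cardiomyocytes and 9.48, 10.80 and 12.22 in fibroblasts. Both groups spanned the same range, and the difference was 0.74 (SE 1.57, adjusted p = 0.913). Echs1 averaged 3.10 ± 1.5 against 3.80 ± 0.28, and Acaa2 5.74 ± 0.31 against 5.91 ± 0.38, with overlap in both. The auxiliary enzymes deal with double bonds: Eci1 shifts them and Decr1 reduces them. Decr1 read 5.21, 6.09, 5.20 and 4.08 in cardiomyocytes and 4.01, 5.63 and 3.74 in fibroblasts, a difference of 0.69 (SE 0.61, adjusted p = 0.742) with overlap. Eci1 averaged 4.83 ± 1.31 against 5.20 ± 1.19.

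Electrons from the acyl-CoA dehydrogenases pass to electron transfer flavoprotein, made of Etfa and Etfb, and from it through Etfdh to ubiquinone. Etfa read 6.50, 5.38, 6.32 and 8.53 in cardiomyocytes and 4.95, 4.30 and 3.85 in fibroblasts. Every cardiomyocyte was higher, with a difference of 2.32 (SE 0.95, adjusted p = 0.420). Etfb, the partner subunit, averaged 4.94 ± 0.25 against 4.59 ± 0.54, and Etfdh 4.80 ± 0.92 against 5.0 ± 1.29. Both overlapped between the groups.

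Ketone body use rests on Oxct1, which activates acetoacetate with a CoA from the citrate cycle, and on Acat1, which splits the product to acetyl-CoA. Oxct1 read 12.36, 12.43, 12.09 and 12.42 in cardiomyocytes and 11.44, 11.82 and 11.98 in fibroblasts. The groups did not overlap, and the difference was 0.58 (SE 0.25, adjusted p = 0.453). The other Oxct1 probe sets differed by -0.49, 0.46 and -0.96, and the mean over all 4 was -0.10. Acat1 averaged 8.31 ± 0.90 in cardiomyocytes and 7.92 ± 2.30 in fibroblasts.

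All 4 members of the pyruvate dehydrogenase complex had the higher mean in cardiomyocytes, with a median difference of 1.18. Pdhx, a component of the complex that is not a member, had the lower mean there (difference -0.95). Dld, the dihydrolipoamide dehydrogenase that the complex shares with 2-oxoglutarate dehydrogenase, read 9.68, 9.92, 9.80 and 9.59 in cardiomyocytes and 7.94, 8.89 and 7.03 in fibroblasts. The cardiomyocytes had an SD of 0.14 and the fibroblasts of 0.93, the groups did not overlap, and the difference was 1.79 (SE 0.87, adjusted p = 0.512), with 0.27 for the other probe set. Dlat, the acetyltransferase core, averaged 7.18 ± 0.85 against 5.66 ± 1.93. The subunits of the decarboxylase, Pdha1 (8.94 ± 0.65 against 8.11 ± 0.45) and Pdhb (5.41 ± 0.78 against 4.56 ± 0.68), overlapped between the groups.

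In the citrate cycle 10 of 12 members had the higher mean in cardiomyocytes, with a median difference of 0.69. Idh3b, a regulatory subunit of the NAD-dependent isocitrate dehydrogenase, read 7.86, 9.58, 9.62 and 9.41 in cardiomyocytes and 6.80, 4.04 and 8.23 in fibroblasts. Cardiomyocyte 1 lay below fibroblast 3, so the groups overlapped, and the difference was 2.76 (SE 1.21, adjusted p = 0.463), with 0.41 and -0.77 for the other 2 probe sets. Cs, which makes citrate, read 7.50, 8.69, 9.22 and 8.53 against 5.40, 5.39 and 8.80. Fibroblast 3 lay within the cardiomyocyte range, and the difference was 1.96 (SE 1.17, adjusted p = 0.599), with 1.14 and 1.25 for its other 2 probe sets. Fh1, the fumarase, read 4.49, 4.52, 4.99 and 4.82 against 2.72, 4.45 and 3.63, without overlap but below the median gene in both groups (difference 1.10, SE 0.97, adjusted p = 0.739). Mdh2, the mitochondrial malate dehydrogenase, averaged 11.38 ± 0.99 against 9.81 ± 1.92.

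The remaining enzymes of the cycle overlapped between the types. The other isocitrate dehydrogenase subunits, the catalytic Idh3a (10.66 ± 0.35 against 10.09 ± 0.41) and the regulatory Idh3g (5.34 ± 0.92 against 4.72 ± 0.57), differed by less than 1 log2 unit. The subunits of 2-oxoglutarate dehydrogenase were Ogdh (8.14 ± 0.52 against 7.47 ± 0.91) and Dlst (6.50 ± 0.62 against 6.79 ± 0.80). Succinyl-CoA ligase is formed by Suclg1 (7.03 ± 0.87 against 5.99 ± 0.62) with either Sucla2 (5.42 ± 0.88 against 5.16 ± 1.61) or Suclg2 (4.52 ± 0.84 against 3.81 ± 0.56). Idh2, the NADP-dependent mitochondrial enzyme, averaged 6.09 ± 0.30 against 7.61 ± 1.76, the largest lower difference of the members at -1.51 (SE 0.80, adjusted p = 0.547). Its 2 probe sets had mean levels of 6.65 and 6.63 and went opposite ways, the second being higher in cardiomyocytes by 2.70.

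The malate-aspartate shuttle carries reducing equivalents into mitochondria. Got2, its mitochondrial aminotransferase, read 9.82, 9.73, 9.26 and 9.84 in cardiomyocytes and 9.77, 9.50 and 8.60 in fibroblasts, a difference of 0.37 (SE 0.68, adjusted p = 0.896) with overlap. The mean of its 4 probe sets was lower in cardiomyocytes, at -0.58. Mdh1, the cytosolic malate dehydrogenase, read 12.21, 13.78, 14.18 and 13.85 against 12.38, 11.94 and 13.55. The groups overlapped at a difference of 0.88 (SE 1.74, adjusted p = 0.905), and all 5 Mdh1 probe sets were higher in cardiomyocytes, by 0.59 to 1.80. The probe set at 1.80 had an adjusted p of 0.297 (limma with every probe set fitted). Over the 26 members with several probe sets, 10 had probe sets of opposite sign in this comparison.

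The second set of comparisons asked what cardiomyocyte RNA left in fibroblasts. Between fibroTIPeR and fibroControl cells none of the 36 members passed (limma, 0.0055% of all genes, 1 gene, did). On the probe set used, 0 had an unadjusted p under 0.05, where 6.62% of all genes had. With every probe set fitted, 4 of the 82 member probe sets had such a p, where 6.66% of all probe sets had. They were probe sets of Cs (1.58), Hadh (-1.64) and Oxct1 (-2.59 and -1.72) that did not stand for their genes. The median member difference was 0.11 against -0.020 for all genes, 20 members were higher in fibroTIPeR cells (48.8% of all genes) and 16 lower, and 0 members separated the groups in either direction (1.32% of genes did upwards and 1.68% downwards). That median ran from -0.183 to 0.418 with 1 cell left out at a time and was -0.166 with fibroTIPeR cells 4 and 5 only, and the median 95% interval of a member reached 1.58 to either side.

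By the rule of the smallest p in each role, Acadl came first among these members. It read 8.08, 5.73 and 6.82 in fibroControl and 5.59, 5.38, 5.53, 5.18 and 5.88 in fibroTIPeR cells, against 3.85 to 5.10 in untransfected fibroblasts. The transfected groups overlapped at 1 cell, and the difference was -1.36 (SE 0.68, adjusted p = 0.765), with 0.32 for the other probe set. Dlst, the core of 2-oxoglutarate dehydrogenase, read 5.53, 4.40 and 5.95 in fibroControl and 6.54, 8.25, 5.53, 5.63 and 8.08 in fibroTIPeR cells (difference 1.51, SE 0.77, adjusted p = 0.769), with 0.62, -1.18 and -0.13 for its other probe sets. Dlat read 2.33, 5.10 and 3.77 against 8.53, 3.17, 5.90, 5.43 and 5.77 (difference 2.03, SE 1.11, adjusted p = 0.788). All 3 controls lay below 3 of 5 fibroTIPeR cells in Dlst and below 4 of 5 in Dlat.

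Hadh had the largest difference of the members, -2.66 (SE 1.5, adjusted p = 0.805), with -2.43 and -1.64 for its other probe sets. It read 11.24, 10.60 and 11.18 in fibroControl and 10.63, 2.95, 11.32, 9.79 and 7.03 in fibroTIPeR cells. FibroTIPeR cells 2 and 5 were low and the other 3 overlapped the controls or lay just under them, and with each cell left out in turn the difference ran from -3.41 to -1.31. Etfb read 8.82, 6.01 and 6.77 against 7.74, 6.78, 6.94, 4.65 and 4.50 (difference -1.08, SE 0.80, adjusted p = 0.842). Here cells 4 and 5, those with low 18S, were the low ones. The Etfb difference was -0.044 with fibroTIPeR cells 1 to 3 only and -2.625 with cells 4 and 5 only. With the 18S level as a covariate every named difference of this comparison kept its sign.

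The members named for the remaining roles follow. Cpt1a read 4.50, 3.42 and 5.07 in fibroControl and 5.32, 5.93, 4.45, 4.49 and 6.33 in fibroTIPeR cells (difference 0.97, SE 0.78, adjusted p = 0.860). Decr1 read 5.94, 5.66 and 4.83 against 6.16, 4.97, 4.94, 4.09 and 4.70 (difference -0.50, adjusted p = 0.916). Oxct1 read 12.13, 12.20 and 12.04 against 11.51, 11.99, 11.41, 11.85 and 12.22 (difference -0.33, SE 0.24, adjusted p = 0.842), with -2.59, -0.61 and -1.72 for its other 3 probe sets and -1.31 for the mean of all 4 (adjusted p = 0.615). The Got2 levels were 7.83, 10.66 and 9.55 against 10.87, 8.72, 10.44, 9.49 and 10.53 (difference 0.66, adjusted p = 0.900), without fibroControl 1 the difference was -0.095, and its other probe sets gave -1.21, 0.30 and 0.93. All 4 overlapped between the groups, and 16 of the 26 members with several probe sets had opposite signs among them.

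Untransfected fibroblasts were also a reference for both transfected groups, which therefore share these 3 cells with each other and with the donor comparison. In fibroTIPeR cells against fibroblasts 0 of 36 members passed (limma, 0.055% of all genes), 1 had an unadjusted p under 0.05 (10.1%), 22 were higher (50.2%), and the member median was 0.21 against 0.0040 over all genes (-0.276 with the 18S level as a covariate and -0.028 with fibroTIPeR cells 4 and 5 only). That member was Cs, which read 12.09, 8.70, 10.79, 6.85 and 6.80 in fibroTIPeR cells against 5.40, 5.39 and 8.80 (difference 2.52, SE 1.11, adjusted p = 0.442). Acadl alone separated the groups, higher in fibroTIPeR cells (1.10, SE 0.68, adjusted p = 0.624), as 2.65% of all genes did, and 0 members were separated downwards (2.35%).

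In fibroControl cells against fibroblasts 0 members passed (limma, 1.56% of all genes did), and 5 had an unadjusted p under 0.05 where 17.3% of all genes had, 8.54% higher and 8.80% lower. Acadl (2.46, SE 0.76, adjusted p = 0.0859), Etfb (2.61, SE 0.90, adjusted p = 0.127), Fh1 (2.75, SE 1.03, adjusted p = 0.158) and Cs (3.15, SE 1.25, adjusted p = 0.186) were higher, and Cpt1a was lower (-1.94, SE 0.87, adjusted p = 0.246). All fibroControl cells lay above all fibroblasts in 6 members, these 4 with Hadha and Oxct1 (12.5% of all genes), and below them in Cpt1a and Mdh1 (10.9%). Cs read 10.85, 8.87 and 9.30 in fibroControl cells, Fh1 6.91, 4.89 and 7.25, and Mdh1 8.46, 11.50 and 11.20. The other 2 Cs probe sets differed by 1.53 and -0.47. The member median was -0.050 against 0.029 over all genes, with 18 members higher (51.1% of all genes) and 18 lower, and ran from -0.528 to 0.301 over the alternatives.

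The level of 18S ribosomal RNA was also higher in fibroControl cells (11.23 to 12.08) than in fibroblasts (7.05 to 8.06), without overlap. In that comparison 18S level and transfection cannot be told apart. With the 18S level as a covariate, Cs differed by -0.29 in fibroTIPeR and -0.68 in fibroControl cells against fibroblasts. Fh1 differed by -0.057 in fibroControl cells. Within the 3 fibroTIPeR cells of high 18S, Cs read 8.70 to 12.09 and was higher than in fibroblasts (4.0, adjusted p = 0.0438 by limma), a fit in which 610 genes passed, and in the other 2 it read 6.80 and 6.85. With array weights 4 members passed in fibroControl against fibroblasts, Acadl, Cs and Etfb among them, while 1890 of all genes did.

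Set against the donor type, fibroTIPeR cells had the lower mean in 25 of 36 members, with 11 higher where 43.3% of all genes were. None passed (limma, 0.561% of all genes did), and 5 had an unadjusted p under 0.05, all lower, against 14.3% of all genes in either direction and 7.12% lower. The median member difference was -0.19 against -0.14 over all genes. Among genes above the median level, which held 21 members, the member median was -0.845 against -0.226. That level was a mean over all cells, so a gene could enter through high values in the cardiomyocytes, and 12 members lay above it in every group. This comparison shares the cardiomyocytes with the donor comparison, so the same high cells enter both.

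Acadm read 6.43, 6.80, 6.65, 7.17 and 7.39 in fibroTIPeR cells and 7.61, 9.10, 9.01 and 8.51 in cardiomyocytes, all lower and without overlap (-1.67, SE 0.65, adjusted p = 0.254). Acadl was the other member without overlap, at -1.18 (2.01% of genes were separated downwards, 1.90% upwards, the latter with 0 members). Hadhb read 11.00, 2.76, 9.71, 7.34 and 7.0 in fibroTIPeR cells, from within the cardiomyocyte range to far under it (-3.71, SE 1.47, adjusted p = 0.264), while its other 2 probe sets differed by 0.17 and 0.12. Mdh1 read 12.49, 3.34, 13.04, 12.46 and 10.11 (-3.22, SE 1.53, adjusted p = 0.338), with -2.54 to -0.51 for its other 4 probe sets. Hadh differed by -3.22 (SE 1.38, adjusted p = 0.296), with -2.86 and -0.17 for its other 2. FibroTIPeR cell 2 was the low one in these 3, and Oxct1 was lower by -0.53 (SE 0.22, adjusted p = 0.282) with overlap. In Idh2 the unused probe set was lower in fibroTIPeR cells by -3.95, against 0.98 for the one used.

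**Figure D3:**
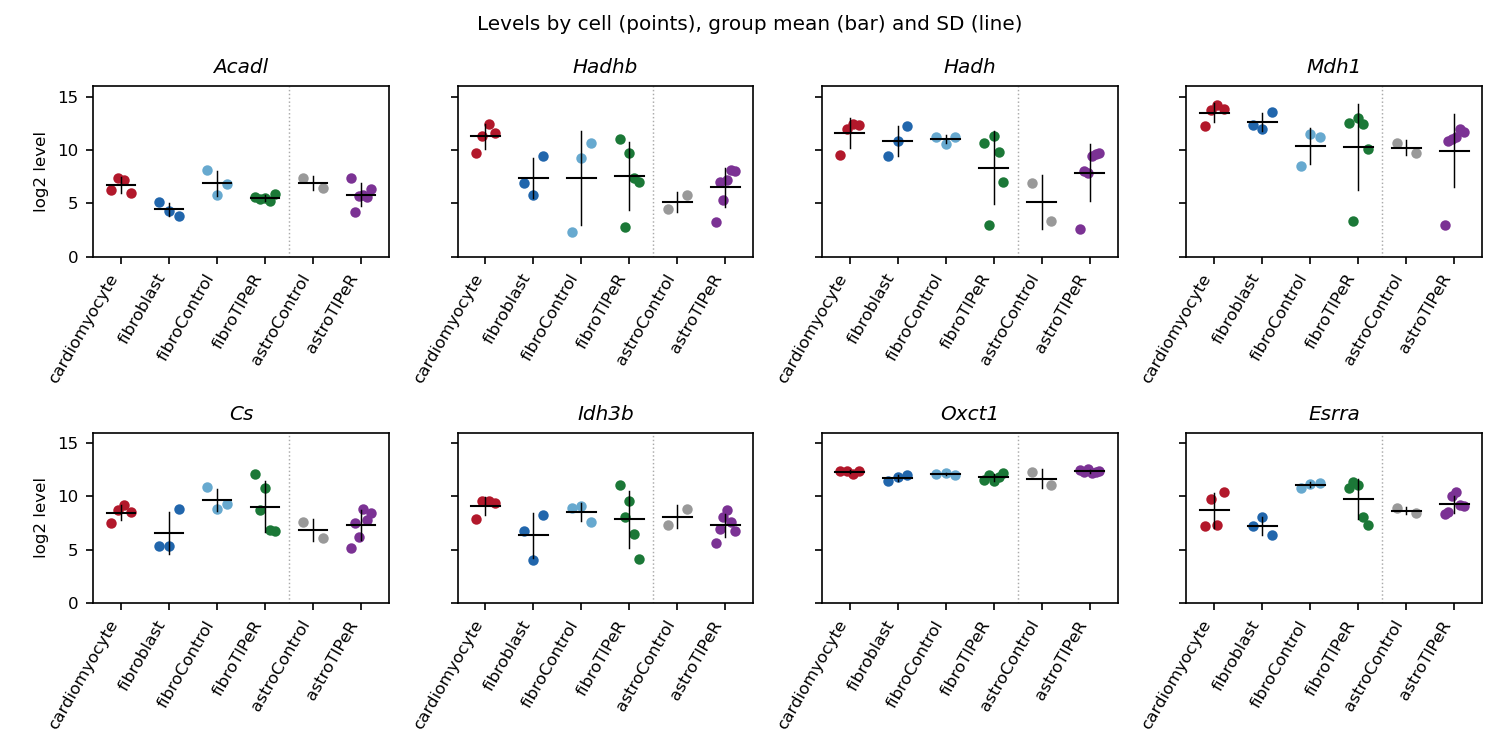
Log2 level of 7 members and of Esrra in each cell (points), with the group mean (bar) and SD (line); the dotted line parts the 15 fibroblast and cardiomyocyte arrays from the 8 astrocyte arrays. Hadhb sits between 9.72 and 12.43 in cardiomyocytes, fibroTIPeR 2 and astroTIPeR 1 fall below 4 in both Hadh and Mdh1, as does astroControl 2 in Hadh, and Oxct1 stays between 11.05 and 12.61 in all 23 cells.

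The third comparison took astrocytes given cardiomyocyte RNA against mock-transfected ones. None of the members passed (limma, 9 genes or 0.0495% of all did), 1 had an unadjusted p under 0.05 (9.44% of all genes), 19 were higher in astroTIPeR cells (54.4%), and the median member difference was 0.23 against 0.079 over all genes. That median was -0.184 without astroControl 2 and -0.081 when each gene's probe sets were averaged. That member was Oxct1, which read 12.32 and 11.05 in astroControl and 12.18 to 12.61 with a median of 12.32 in astroTIPeR cells (difference 0.68, SE 0.27, adjusted p = 0.360). AstroControl 1 lay inside the astroTIPeR range and astroControl 2 under it. Sucla2, the ADP-forming ligase subunit, was the member whose groups did not overlap, at 4.69 and 3.64 against 4.84 to 6.81 with a median of 6.11 (1.86, SE 0.99, adjusted p = 0.590), with 0 and -0.34 for its other probe sets; 7.02% of all genes were separated upwards and 4.79% downwards, the latter with 0 members.

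The members named for the other roles rested on 2 control cells that often stood apart. Cpt1a read 4.69 and 8.88 in astroControl and 3.30 to 5.94 with a median of 5.50 in astroTIPeR cells (-1.76, SE 0.87, adjusted p = 0.536), with -0.34 and 0.31 for its other probe sets. Etfa read 6.26 and 9.50 against 4.70 to 6.80 with a median of 5.94 (-2.03, SE 1.01, adjusted p = 0.544). AstroControl 2 was the high cell in both. Hadh read 6.92 and 3.34 against 2.63 to 9.73 with a median of 8.72 (2.75, SE 1.68, adjusted p = 0.658). Acadl read 7.36 and 6.42 against 4.17 to 7.34 with a median of 5.73 (-1.07, SE 0.76, adjusted p = 0.727), with 0.26 for its other probe set. In Hadh 5 of 6 astroTIPeR cells were above both controls and 1 below them.

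Pdha1 (7.02 and 6.65 against 6.97 to 8.66, difference 0.98, adjusted p = 0.788), Got2 (8.94 and 10.77 against 8.23 to 9.55, difference -0.80, adjusted p = 0.822) and Eci1 (4.43 and 3.21 against 3.78 to 4.85, difference 0.48, adjusted p = 0.912) overlapped between the groups, and the other Got2 probe sets gave 1.24, -1.47 and -0.66. Without astroControl 1 Cpt1a (-3.85, adjusted p = 0.0267) and Oxct1 (1.32, adjusted p = 0.0122) passed and 543 genes did in all, a fit in which the lone control cell is assumed to vary like the other groups. Without astroControl 2 Cpt1a differed by 0.34, Got2 by 0.11 and Eci1 by -0.13. The macrophage marker list averaged 7.89 in astroTIPeR and 7.37 in astroControl cells, and its part in these values was not tested.

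The difference of the transfer effect between fibroblasts and astrocytes was tested as an interaction. No member and no other gene passed (limma, 0% of all genes), 3 members had an unadjusted p under 0.05, against 7.65% of all genes, and 18 had a positive value, against 46.3%. They were Oxct1 (-1.01, SE 0.36, adjusted p = 0.513), Hadh (-5.41, SE 2.25, adjusted p = 0.574) and Cpt1a (2.73, SE 1.17, adjusted p = 0.589), where a positive value means a more positive change in fibroblasts. The controls of the recipient types differ in kind, fibroblast RNA and mock, which cannot be told apart from the cell type here. The number of members called changed without astroControl 1, a fit left with a lone control cell.

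**Figure D4:**
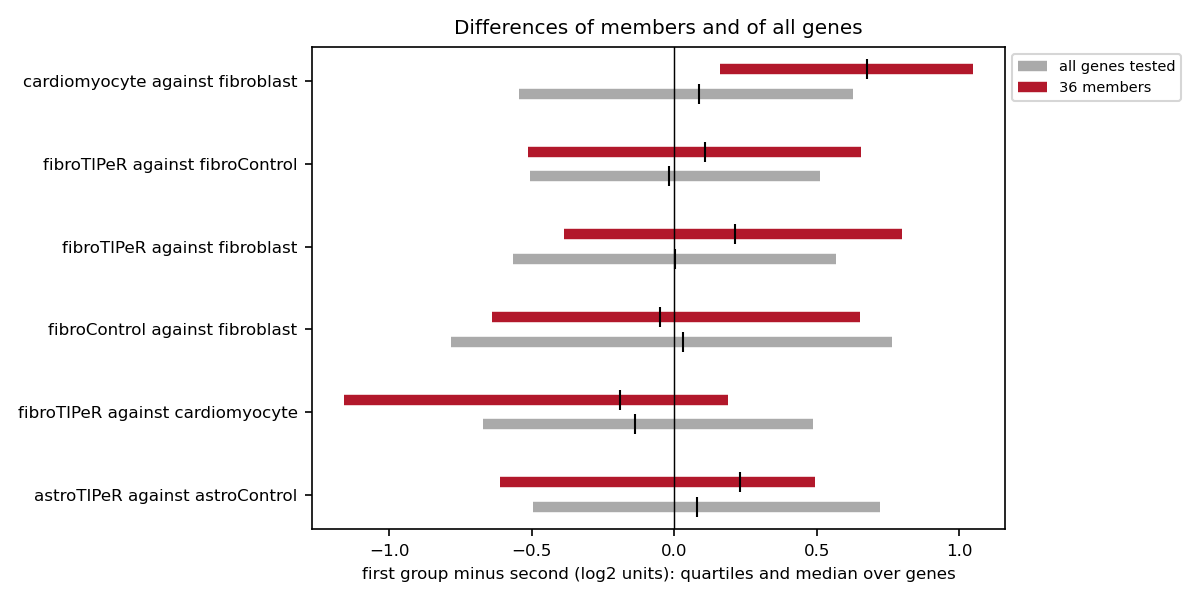
Median (black tick) and quartiles (bar) of the log2 differences of the 36 members (red) and of all 18193 genes tested (grey) in each comparison of the first-named group minus the second. In cardiomyocyte against fibroblast the member bar lies further right than the grey one and overlaps it in part (median 0.68 against 0.087), and the bars overlap around 0 in both transfer comparisons (0.11 and 0.23).

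The members are given next by their group means, in fibroControl, fibroTIPeR, astroControl and astroTIPeR cells in that order. For the entry and dehydrogenation steps these were 5.65, 5.88, 5.23 and 4.86 for Cpt2, 5.41, 6.32, 5.54 and 6.07 for Acadvl, and 5.11, 4.62, 6.89 and 5.95 for Acads. The later steps gave 5.60, 4.96, 6.49 and 5.92 for Hadha, 3.69, 3.33, 3.69 and 3.26 for Echs1, and 5.58, 5.66, 5.79 and 5.11 for Acaa2. Etfdh averaged 4.74, 4.74, 4.10 and 4.34, Acat1 5.19, 6.90, 4.52 and 5.44, and Pdhb 5.14, 5.69, 6.15 and 6.07. SDs were between 0.056 for Acadvl in astroControl and 2.85 for Cpt2 in fibroControl cells, where single cells read 5.27, 3.0 and 8.67.

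In the citrate cycle Idh2 averaged 7.15, 7.07, 5.94 and 6.17, and Idh3a, the catalytic subunit, 9.41, 10.46, 9.71 and 9.95. Idh3g averaged 6.41, 5.52, 4.68 and 4.97, and Idh3b 8.52, 7.86, 8.11 and 7.29. Ogdh stood at 6.63, 7.09, 7.46 and 7.70, Suclg1 at 6.24, 6.37, 5.43 and 6.35, Suclg2 at 4.41, 4.57, 3.28 and 3.54, and Mdh2 at 10.11, 10.61, 9.08 and 9.47. Apart from Idh3b in cardiomyocytes against fibroblasts, none of these had an unadjusted p under 0.05 in any of the 6 comparisons on the probe set used. SDs among them reached 2.69, in Idh3b of fibroTIPeR cells, which read 11.08, 8.06, 9.55, 6.48 and 4.14.

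The remaining members had these means in the same order of groups. The values were 4.33, 5.30, 6.78 and 5.03 for Cpt1a, 7.44, 6.89, 6.45 and 6.82 for Acadm, and 6.88, 5.52, 6.89 and 5.82 for Acadl. For the later and auxiliary steps they were 7.39, 7.56, 5.10 and 6.48 for Hadhb, 11.01, 8.34, 5.13 and 7.88 for Hadh, 4.64, 4.67, 3.82 and 4.30 for Eci1, and 5.47, 4.97, 5.41 and 5.22 for Decr1. Electron transfer and ketone use gave 5.18, 5.84, 7.88 and 5.85 for Etfa, 7.20, 6.12, 6.77 and 5.73 for Etfb, and 12.12, 11.80, 11.68 and 12.37 for Oxct1. The pyruvate dehydrogenase complex gave 7.45, 7.79, 6.84 and 7.82 for Pdha1, 3.74, 5.76, 4.49 and 4.02 for Dlat, and 7.49, 8.37, 9.71 and 9.11 for Dld. The citrate cycle gave 9.67, 9.05, 6.86 and 7.33 for Cs, 5.29, 6.81, 6.61 and 5.98 for Dlst, 4.92, 6.37, 4.16 and 6.02 for Sucla2, and 6.35, 5.28, 5.46 and 6.01 for Fh1. The malate-aspartate shuttle gave 10.39, 10.29, 10.21 and 9.93 for Mdh1 and 9.35, 10.01, 9.86 and 9.05 for Got2. Hadhb had the largest SD of these among fibroControl cells (4.43) and Mdh1 among fibroTIPeR cells (4.04).

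Correlations between members from cell to cell were mostly weak. Over the 15 fibroblast and cardiomyocyte arrays, after each group's mean was taken off, the 630 member pairs had a median correlation of 0.063 and 14.0% of them exceeded 0.5, against a median of 0 and 8.15% for pairs of every 18th gene of the table. Pairs within a role exceeded 0.5 in 23.2% of cases and pairs across roles in 12.3%, with medians of 0.053 and 0.063. The pairs with the highest values were Idh3a with Got2 (r = 0.933), Hadhb with Acat1 (0.921), Sucla2 with Mdh2 (0.901) and Hadh with Mdh1 (0.899). In the 8 astrocyte arrays the same pairs had -0.60, 0.681, 0.594 and 0.931, so the first had the opposite sign there. The probe sets of Hadhb, Hadh and Mdh1 may bind related sequences. In Hadh and Mdh1, fibroTIPeR 2 (2.95 and 3.34) and astroTIPeR 1 (2.63 and 2.95) lay far under their groups. The same cells were low in Hadhb and Acat1, and correlations without them were not computed. These are descriptions over cells that share amplification and array processing.

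Partner subunits did not always move together. Etfa and Etfb correlated at 0.695 and Idh3b with Idh3g at 0.733, but Hadha and Hadhb, which share the stretch of promoter shown, at -0.047, and Pdha1 with Pdhb at -0.211. Single cells lay far under their group in Mdh1, Hadh, Hadhb and Acat1, chosen here after their values were seen. FibroTIPeR 2 read 3.34 for Mdh1, 2.95 for Hadh, 2.76 for Hadhb and 2.95 for Acat1, and astroTIPeR 1 read 2.95 for Mdh1, 2.63 for Hadh, 3.26 for Hadhb and 2.63 for Acat1. FibroControl 1 was low in Hadhb (2.33) and Acat1 (3.22) and less so in Mdh1 (8.46), with Hadh at 11.24.

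Other genes of the pathway were read from a list of 52, of which 45 were measured. None passed in cardiomyocytes against fibroblasts (limma), and 2 of the 45 had an unadjusted p under 0.05, where 9.72% of all genes had. Acaca, which makes malonyl-CoA, the inhibitor of the carnitine shuttle, read 3.13, 3.13, 5.37 and 4.40 in cardiomyocytes and 7.44, 8.72 and 7.02 in fibroblasts, all lower (-3.71, SE 0.90, adjusted p = 0.0884), with 0.55 for its other probe set. Ppara, a receptor that switches on fatty acid oxidation genes, read 7.53, 5.58, 7.39 and 6.98 against 5.45, 5.53 and 4.90, all higher (1.58, SE 0.72, adjusted p = 0.480), with -0.76 and 0.38 for its other probe sets. Pcx, which makes oxaloacetate from pyruvate, followed at 1.17 (adjusted p = 0.553).

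At an unadjusted p under 0.05, 4 of the 45 passed between fibroTIPeR and fibroControl (3 higher and 1 lower, where 6.62% of all genes passed) and 5 between fibroTIPeR and fibroblast (all higher, 10.1% of all genes). Between fibroControl and fibroblast 14 passed (8 higher and 6 lower, 17.3% of all genes), between fibroTIPeR and cardiomyocyte 8 (5 higher and 3 lower, 14.3%) and between astroTIPeR and astroControl 9 (6 higher and 3 lower, 9.44%). With Benjamini-Hochberg adjustment over all genes 1 of the 45 passed in 1 comparison, fibroControl against fibroblast, where 283 genes, 1.56% of all, passed. Esrra, the estrogen-related receptor alpha, was higher in fibroControl cells (10.84, 11.15 and 11.30) than in fibroblasts (7.21, 8.04 and 6.43), by 3.87 (SE 0.99, adjusted p = 0.0433 by limma). Its other probe set differed by 0.16. Among fibroTIPeR cells it read 10.77, 11.38 and 11.12 in cells 1 to 3, those with high 18S, and 8.07 and 7.34 in cells 4 and 5. With the 18S level as a covariate the difference was 1.12 (adjusted p = 0.764 by limma), but 18S level and transfection cannot be told apart here. Over the alternatives tried the adjusted p of Esrra ran from 0.0179 to 0.764 (limma), above 0.05 in 14 of 18.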

How the data were processed

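RNA of 23 single cells was measured on Affymetrix mouse arrays. The authors' deposited table holds log2 expression per probe set; the sources used here do not say how it was summarized or normalized. The groups come from the sample titles. The 36 members and all gene lists were chosen with earlier results of these data known.

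The 64 control probe sets were left out, as were 932 with several gene symbols and 9160 without an entry in the platform annotation; 34945 had 1 symbol. All arrays were quantile normalized together, each gene was represented by its probe set with the highest mean, and 18193 genes were fitted in 1 model of the 6 groups with limma 3.58.1 (R 4.3.3, statmod 1.5.0), with a mean-variance trend and Benjamini-Hochberg adjustment at 0.05. Precision is limited by how many arrays each group has. The procedure was tested on simulated data with independent normal noise around each gene's mean, at that gene's own spread. The same randomly drawn genes were shifted in cardiomyocyte, fibroTIPeR and astroTIPeR cells, and the other genes had no group difference. In cardiomyocytes against fibroblasts it recovered 14.9% of genes changed by 2 log2 units and 83.6% of those changed by 4. The shares were 13.4% and 80.6% in fibroTIPeR against fibroControl, and 13.4% and 76.1% in astroTIPeR against astroControl. These shares are averages over genes of differing spread and need not hold for a given member. Hadhb, with a difference of 3.89 in cardiomyocytes against fibroblasts, did not pass. Correlations between arrays ran from 0.546 to 0.918, and 0 pairs were identical.

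Every member is given by its group levels. Values per cell are given for the member with the smallest p of its role in the donor, fibroblast transfer and astrocyte transfer comparisons, and members whose groups did not overlap or that had an unadjusted p under 0.05 were added after their values were seen. Of the other pathway genes those past the threshold, and otherwise the 3 with the smallest p, are named. Motifs were searched in RefSeq promoter windows of GRCm38.p6 (Python 3.11.15). Alternatives were other normalizations, the mean of all probe sets, genes above the median level, no trend, array weights, fits of the compared groups alone, the replicate number as a block, the 18S level as a covariate, and leaving out each cell. Same-numbered cells of different groups had correlations of their deviations from -0.341 to 0.285, above 0.1 in 8 of 44 pairs. Differently numbered cells were not compared in this way, so these values cannot show whether the numbers pair the cells. The main fit did not pair them.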

Additional observations from a re-analysis of the deposited data

Results flagged for a closer look

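In 7 of the 120 gene and group pairs with 4 to 6 cells, 1 cell lay far from the others by Dixon's criterion, which chance alone meets in about 1 in 20 groups. Cardiomyocyte 1 was low for Hadh (9.52, others 11.98 to 12.47), Idh3b (7.86, others 9.41 to 9.62) and Mdh2 (9.90, others 11.80 to 11.99). Cardiomyocyte 4 was high for Hadha, at 6.51 with the others at 4.81 to 5.08. AstroTIPeR 1 was low for Hadh (2.63, others 7.88 to 9.73) and Mdh1 (2.95, others 10.83 to 11.93), and astroTIPeR 6 was low for Acaa2 (3.22, others 4.97 to 5.80).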

How the results depend on the processing

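Of 42 named differences, 23 kept their sign and their side of the threshold under every alternative run. With array weights 5 members passed in cardiomyocytes against fibroblasts and 4 in fibroControl against fibroblasts, and Decr1 differed by -0.174 in the former. With fibroTIPeR cells 1 to 3 only, 1 member passed against fibroblasts. With the 18S level as a covariate the member median of fibroControl against fibroblasts was -0.528, Cs differed by -0.290 (fibroTIPeR) and -0.682 (fibroControl) and Fh1 by -0.057 (fibroControl). Among genes above the median level, taken over all cells with the cardiomyocytes included, the member median of fibroTIPeR against cardiomyocytes was -0.845. With the mean of all probe sets Oxct1 differed by -0.104 and Got2 by -0.581 in cardiomyocytes against fibroblasts. The cause of these shifts was not tested.

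Leaving out 1 cell at a time changed the number of members past the threshold only without astroControl 1, a fit left with a lone control cell. The astrocyte member median ran from -0.184 to 0.225. Got2 ran from -0.095 to 1.317 in fibroTIPeR against fibroControl, turning without fibroControl 1. In the astrocyte comparison Cpt1a ran from -3.854 to 0.340, Eci1 from -0.126 to 1.094 and Got2 from -1.718 to 0.110, all 3 turning without astroControl 2; a lone control cell was assumed to vary like the other groups. With the replicate number as a block 0 members passed in each comparison, with a member median of 0.626 in cardiomyocytes against fibroblasts and 0.008 in fibroTIPeR against fibroControl, and Esrra had an adjusted p of 0.0643 (limma).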

Other observations

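Pdk4, a kinase that switches off pyruvate dehydrogenase, was picked out of the pathway list after its values were seen. It read 6.92 and 11.12 in the 2 astroControl cells and 3.74 to 6.20 in the 6 astroTIPeR cells, without overlap (-3.45, SE 0.90, adjusted p = 0.121 by limma). In fibroblasts it read 4.07, 4.78 and 3.77 in fibroControl and 4.85, 5.70, 5.68, 5.73 and 7.57 in fibroTIPeR cells, again without overlap and the other way (1.70, SE 0.80, adjusted p = 0.740). Untransfected fibroblasts read 6.71, 7.09 and 7.95. The interaction was 5.15 (SE 1.20, adjusted p = 0.298), so the difference between recipient types did not pass.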
